A study of Mus musculus with 9 samples.

Results

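Lung expression of 9 genes of monocytes and interstitial macrophages was followed in mice that carried a human CFTR transgene. The genes were C1qa, C1qb, C1qc, Csf1r, Cd14, Ccr2, Cx3cr1, Apoe and Plac8, and they were taken as all probe sets of an Affymetrix mouse array that the platform's annotation gives to 1 of these symbols. That gave 16 probe sets of the 22690 on the array, for 9 of 12394 genes named by a single symbol. A probe set is a group of short probes designed against 1 transcript, read out as 1 fluorescence intensity per array. The study holds 9 arrays of total lung RNA from adult FVB/N mice, 3 in each of 3 groups. HO lungs carried 2 transgene alleles (SP-C-hCFTR+|+), HE lungs carried 1 (SP-C-hCFTR+|-), and WT lungs carried none. The human CFTR cDNA was driven by the promoter of Sftpc, the surfactant protein C gene of respiratory epithelial cells, so the transgene was not aimed at the myeloid cells described here, and all groups were of the FVB/N strain. The labelled genotype gives 2 normal copies of the mouse's own Cftr (mCftr+|+) for the 8 arrays that carry that label. WT replicate 3 was placed by its title alone. HO replicate 2 is homozygous by its title and genotype label, while its description writes 1 allele, so the differences from WT that it moved most are also given without it. The labels do not say which transgenic line was used, nor whether an array stands for 1 animal or a pool. The p-values therefore describe array-to-array spread, part of which may be technical.

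Monocytes leave the blood and enter the lung, where some become interstitial macrophages, which live in the tissue around airways and vessels and are distinct from the alveolar macrophages of the air spaces. Csf1r is the receptor for the growth factors Csf1 and Il34 that keep monocytes and macrophages alive. Ccr2 and Cx3cr1 are chemokine receptors that mark the inflammatory and the patrolling monocyte, respond to Ccl2 and its relatives and to Cx3cl1, and guide these cells through vessels and tissue. Tissue macrophages are the main source of C1q, whose A, B and C chains assemble into the molecule that starts the classical complement cascade. None of these genes is private to interstitial macrophages: Apoe is also made by alveolar macrophages, Cd14 by neutrophils and Plac8 by other leukocytes and epithelium.

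The C1q chains lie side by side on chromosome 4 of the mouse genome in the order C1qb, C1qc and C1qa, with no other RefSeq gene among them (assembly GRCm38.p6). RefSeq promoter windows, from 250 bases before to 50 bases after a gene's start, are shown for C1qb and C1qc because the main probe sets of these neighbours varied differently over the arrays. The C1qb probe sets also differed from each other, and whether the promoters bear on either was not tested. Both are on the minus strand and written 5′ to 3′, C1qb at chr4:136886151-136886450 and C1qc at chr4:136892865-136893164. Capitals mark the letters GAGGAA (or TTCCTC on the other strand), the core bound by PU.1, a transcription factor of myeloid cells, and TGCTGA (or TCAGCA), a half-site of the Maf factors. No match overlaps another.
C1qb: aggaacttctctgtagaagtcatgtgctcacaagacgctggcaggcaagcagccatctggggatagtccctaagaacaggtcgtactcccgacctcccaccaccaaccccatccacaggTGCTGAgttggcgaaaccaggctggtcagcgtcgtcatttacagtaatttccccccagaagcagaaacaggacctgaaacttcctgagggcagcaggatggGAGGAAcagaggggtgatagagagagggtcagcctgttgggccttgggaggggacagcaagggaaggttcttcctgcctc
C1qc: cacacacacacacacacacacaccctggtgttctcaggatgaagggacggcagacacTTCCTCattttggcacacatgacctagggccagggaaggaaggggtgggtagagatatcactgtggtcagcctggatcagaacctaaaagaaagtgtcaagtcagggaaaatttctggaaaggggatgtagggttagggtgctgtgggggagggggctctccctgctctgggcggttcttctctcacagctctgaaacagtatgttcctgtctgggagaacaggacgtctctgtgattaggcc
The C1qb window holds 1 GAGGAA match, which begins 30 bases before the start, and 1 TGCTGA match 131 bases before it. The C1qc window holds 1 match to the first motif, on the other strand, 193 bases before the start, and none to the second. The 9 promoter windows used belong to 6 of the genes (C1qb, C1qc, Plac8, Apoe, Cx3cr1 and Ccr2). No window of C1qa, Csf1r or Cd14 was used. Of these 9 windows, 5 hold GAGGAA on either strand, against 28.3% of all 32851 mouse promoter windows. TGCTGA is held by 1, against 19.5%. Plac8 and Apoe have more than 1 window each. Apoe has windows that partly overlap, and more than 1 of its windows holds GAGGAA. The counts are therefore of windows, and not a share of the genes studied. Matches of 6 letters are descriptions of these windows and not binding sites.

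Median intensities ran from 697.1 to 741.8 over the 9 arrays. The correlation of log2 signal between 2 arrays averaged 0.967 within groups and 0.968 between groups. All 11 of 11 lung epithelial and endothelial genes used to check the tissue passed the filter on dim signals. General macrophage markers were present too: Adgre1, which encodes a surface antigen of macrophages, had 2124, 1468 and 1270 in HO lungs, 1227, 1643 and 1802 in HE lungs and 1403, 1660 and 1301 in WT lungs. No group of arrays stood apart in Adgre1. Of the 16 member probe sets, 14 had a mean above the filter on dim signals (476.5 in intensity) and were tested, and these 14 cover all 9 genes. A second Cx3cr1 probe set and the dimmest Ccr2 probe set fell under it and are given as values. Because probe sets bind with unequal strength, intensities are compared between arrays and never between probe sets.

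No member probe set passed the adjusted threshold against WT, with 2 transgene alleles or with 1. At 1 of them, a Csf1r probe set, all HE arrays lay below all WT arrays. With limma and Benjamini-Hochberg adjustment over 13576 probe sets, 0 of 14 passed an adjusted p of 0.05 in HO against WT (background 0% of all probe sets; lowest adjusted p among the members 0.992), and 0 of 14 in HE against WT (background 0%; lowest adjusted p 1). At an unadjusted p under 0.05 there were 0 of 14 in HO (background 4.49%; 1 of 14, Plac8, with replicate number as a block) and 1 of 14 in HE (background 3.11%), a Csf1r probe set. HO was separated from WT without overlap at 0 of 14 (background 8.88%). In HO 9 member probe sets were above and 5 below WT, with a median log2 difference of 0.04, against -0.005 over all probe sets (48.8% of them above). In HE 3 were above and 11 below, with a median of -0.06, against -0.007 over all probe sets (47.8% of them above). Several of the member probe sets share a gene, so these counts are not of independent values. Both comparisons use the same 3 WT arrays. Without HO replicate 2, the HO minus WT difference was 0.0361 for C1qb 1417063_at (-0.083 with it), 0.0185 for C1qb 1434366_x_at (0.153 with it), -0.014 for Csf1r 1423593_a_at (0.031 with it), 0.0989 for Ccr2 1421187_at (0.057 with it) and 0.0321 for Cx3cr1 (-0.123 with it). For C1qa it was 0.196 (0.135 with that array) and for C1qc 0.142 (0.099 with that array). In the fit without a replicate block, the 95% interval of a member's difference reached 0.406 to either side in HO and 0.407 in HE (medians, log2). Differences within those bounds could not be told from none in that fit for a typical member. In whole lung RNA, fewer cells of a type and less RNA per cell cannot be told apart.

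**Figure D1:**
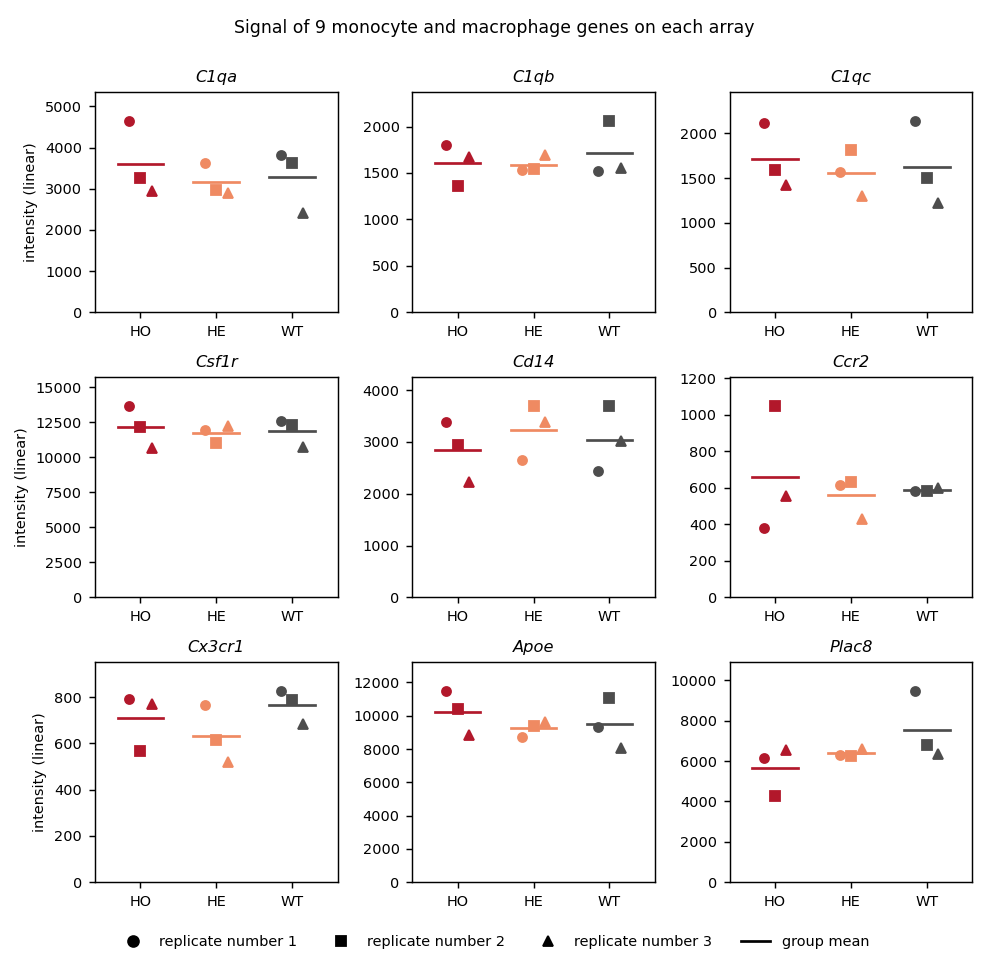
Intensity (linear axis from 0) of the main probe set of each gene on the 9 arrays, in HO, HE and WT lungs. Symbols give the replicate number and bars the group mean. The 3 groups overlap in each panel, and in the C1qa and C1qc panels the triangles of replicate number 3 lie lowest within every group.

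C1qa encodes the A chain of C1q. It had intensities of 4640, 3250 and 2936 in HO lungs (replicates 1, 2 and 3), 3620, 2958 and 2895 in HE lungs and 3813, 3628 and 2418 in WT lungs. The highest array was HO replicate 1 and the lowest WT replicate 3, and the groups overlapped. The mean was 3609 ± 907 in HO, 3158 ± 402 in HE and 3286 ± 757 in WT (SD, n = 3 each). The log2 difference was 0.14 ± 0.21 (SE) in HO against WT, with a 95% interval from -0.33 to 0.60, and -0.04 ± 0.21 in HE against WT, from -0.51 to 0.43 (limma, adjusted p = 0.992 and 1). With replicate number as a block, the SE in HO was 0.14 (adjusted p = 0.913 in limma).

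C1qc encodes the C chain. It had 2118, 1590 and 1429 in HO lungs, 1572, 1815 and 1299 in HE lungs and 2138, 1503 and 1219 in WT lungs. HO replicate 1 and WT replicate 1 were nearly level at the top. The log2 difference was 0.10 ± 0.22 in HO (interval -0.39 to 0.59) and -0.03 ± 0.22 in HE (interval -0.51 to 0.46).

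C1qb, the B chain, has 3 probe sets. The one of highest signal, 1417063_at, had 1799, 1356 and 1676 in HO lungs, 1537, 1540 and 1696 in HE lungs and 1519, 2058 and 1554 in WT lungs, with log2 differences of -0.08 ± 0.16 in HO and -0.09 ± 0.16 in HE. The probe set 1434366_x_at had 1588, 1815 and 1184 in HO lungs, 1262, 1439 and 1826 in HE lungs and 1309, 1116 and 1700 in WT lungs, with 0.15 ± 0.21 in HO and 0.14 ± 0.21 in HE. The probe set 1437726_x_at had 783, 642 and 562 in HO lungs, 688, 782 and 651 in HE lungs and 689, 611 and 466 in WT lungs, with 0.18 ± 0.18 in HO and 0.28 ± 0.18 in HE. These probe sets ordered the arrays differently: WT replicate 2 was the highest array of the first and the lowest of the second. On Affymetrix arrays the suffix _x marks probes that may also bind other sequences, and which transcripts these 2 read was not tested. The 3 did not track each other over the 9 arrays. Pearson's r was -0.46 between 1417063_at and 1434366_x_at (exact permutation p = 0.219, Spearman's rho -0.22, exact p = 0.581), 0.00 between 1417063_at and 1437726_x_at (exact p = 0.999, rho -0.10, exact p = 0.81) and -0.03 between the 2 _x probe sets (exact p = 0.938, rho 0.10, exact p = 0.81). Adjusted over the 10 pairs of probe sets that share a gene, these p-values ran from 0.547 to 0.999 for r. Without the 2 arrays farthest from the median, r was -0.27, -0.18 and -0.14 in the same order.

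**Figure D2:**
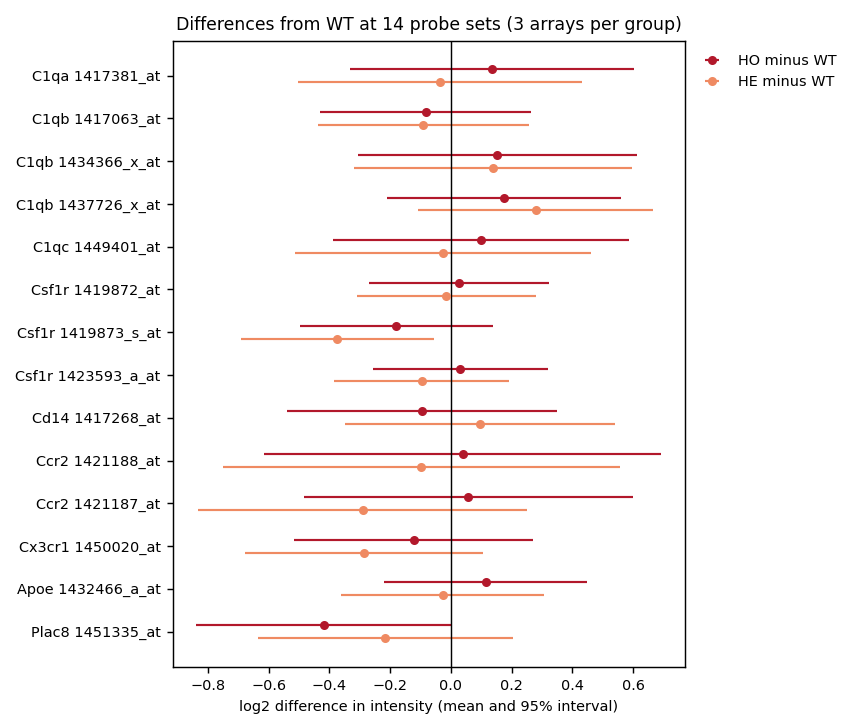
Log2 difference from WT (horizontal axis) at the 14 member probe sets tested, for HO in red above and HE in orange below each line, with 95% intervals from limma (3 arrays per group). The interval of Csf1r 1419873_s_at in HE, from -0.69 to -0.06, leaves out 0, and that of Plac8 in HO ends at 0.002.

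Csf1r, the receptor that defines the mononuclear phagocyte lineage, also has 3 probe sets. The one of highest signal, 1419872_at, had 13662, 12143 and 10646 in HO lungs, 11988, 11050 and 12239 in HE lungs and 12625, 12305 and 10774 in WT lungs. The groups overlapped almost fully, with log2 differences of 0.03 ± 0.14 in HO (interval -0.27 to 0.32) and -0.02 ± 0.14 in HE (interval -0.31 to 0.28). The probe set 1419873_s_at had 4124, 3325 and 3107 in HO lungs, 3144, 2855 and 3168 in HE lungs and 4283, 4135 and 3500 in WT lungs. All 3 HE arrays lay below all 3 WT arrays, at 0.771 times the WT signal, a log2 difference of -0.38 ± 0.14. HE and WT did not overlap at 1 of 14 member probe sets, where 7.7% of all probe sets did the same. The unadjusted p of 0.0247 did not hold over all probe sets (limma, adjusted p = 1). In HO this probe set was at -0.18 ± 0.14, and over both transgenic groups at -0.28 ± 0.12 (unadjusted p = 0.0482 and adjusted p = 1 in limma). The remaining probe set, 1423593_a_at, had 2747, 3304 and 3295 in HO lungs, 2772, 2953 and 2804 in HE lungs and 3365, 2776 and 3001 in WT lungs, with 0.03 ± 0.13 in HO and -0.10 ± 0.13 in HE. The lower signal in HE at 1419873_s_at was thus not seen at the other Csf1r probe sets, whose HE and WT arrays overlapped. By its suffix _s that probe set can read more than 1 transcript; RefSeq also lists a Csf1r pseudogene, and whether the probes bind it was not tested. The first and second Csf1r probe sets had r = 0.67 over the 9 arrays (exact permutation p = 0.0517, adjusted p = 0.259 over 10 pairs; rho = 0.73, exact p = 0.0311, adjusted p = 0.155), and 0.78 without the 2 arrays farthest from the median. The remaining one had r = -0.33 with the first (exact p = 0.374; rho = -0.28, exact p = 0.463) and -0.02 with the second (exact p = 0.952; rho = 0.07, exact p = 0.88).

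Cd14, the co-receptor that hands bacterial lipopolysaccharide to Tlr4, had 3376, 2942 and 2233 in HO lungs, 2644, 3692 and 3380 in HE lungs and 2431, 3690 and 3020 in WT lungs. The groups overlapped, and HO replicate 3 was the lowest array. The log2 difference was -0.10 ± 0.20 in HO (interval -0.54 to 0.35) and 0.10 ± 0.20 in HE (interval -0.35 to 0.54). Neutrophil signal varied widely over the same arrays: the summed intensity of 13 neutrophil markers ran from 15343 to 33922 in HO, from 18718 to 72143 in HE and from 17849 to 55513 in WT, with 0 of 13 at or under the floor on all arrays. The part of neutrophils in the Cd14 values was not tested.

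Ccr2, the receptor that lets inflammatory monocytes leave the bone marrow, gave dim signals. The probe set 1421188_at had 381, 1047 and 555 in HO lungs, 615, 634 and 428 in HE lungs and 583, 582 and 601 in WT lungs. The WT arrays were nearly equal, while HO held both the highest and the lowest array, with an SD of 345 in HO, 114 in HE and 11 in WT. The mean difference was 0.04 ± 0.30 in HO, with an interval from -0.61 to 0.69, and it was -0.36 without HO replicate 2, the array whose labels conflict. In HE it was -0.10 ± 0.30. The probe set 1421187_at had 440, 541 and 791 in HO lungs, 415, 628 and 350 in HE lungs and 474, 609 and 578 in WT lungs, with 0.06 ± 0.25 in HO and -0.29 ± 0.25 in HE. The probe set left untested, 1421186_at, had 233, 266 and 553 in HO lungs, 337, 364 and 183 in HE lungs and 341, 605 and 346 in WT lungs. The high HO replicate 2 of the first Ccr2 probe set was not repeated at the others, where HO replicate 3 was the highest HO array. The last 2 probe sets had r = 0.81 (exact permutation p = 0.00934, adjusted p = 0.0934 over 10 pairs; rho = 0.87, exact p = 0.00451, adjusted p = 0.0451) and 0.55 without the 2 arrays farthest from the median, and the first had r = 0.37 and 0.22 with them (exact p = 0.337 and 0.579; rho 0.23 and 0.18, exact p = 0.552 and 0.644).

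Cx3cr1, the fractalkine receptor of patrolling monocytes and of some resident macrophages, had 791, 565 and 770 in HO lungs, 765, 615 and 521 in HE lungs and 826, 786 and 685 in WT lungs at its brighter probe set. The groups overlapped, and WT replicate 1 was the highest array. The log2 difference was -0.12 ± 0.18 in HO (interval -0.52 to 0.27) and -0.29 ± 0.18 in HE (interval -0.68 to 0.11). At its dim probe set, 1450019_at, the intensities were 40, 115 and 183 in HO lungs, 24, 67 and 86 in HE lungs and 21, 28 and 24 in WT lungs. There the WT arrays lay around the floor of 25.55 that was set for all arrays (3 of the 9 arrays were at or under it), and the 2 Cx3cr1 probe sets had r = -0.50 over the 9 arrays (exact permutation p = 0.172; rho = -0.44, exact p = 0.238).

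**Figure D3:**
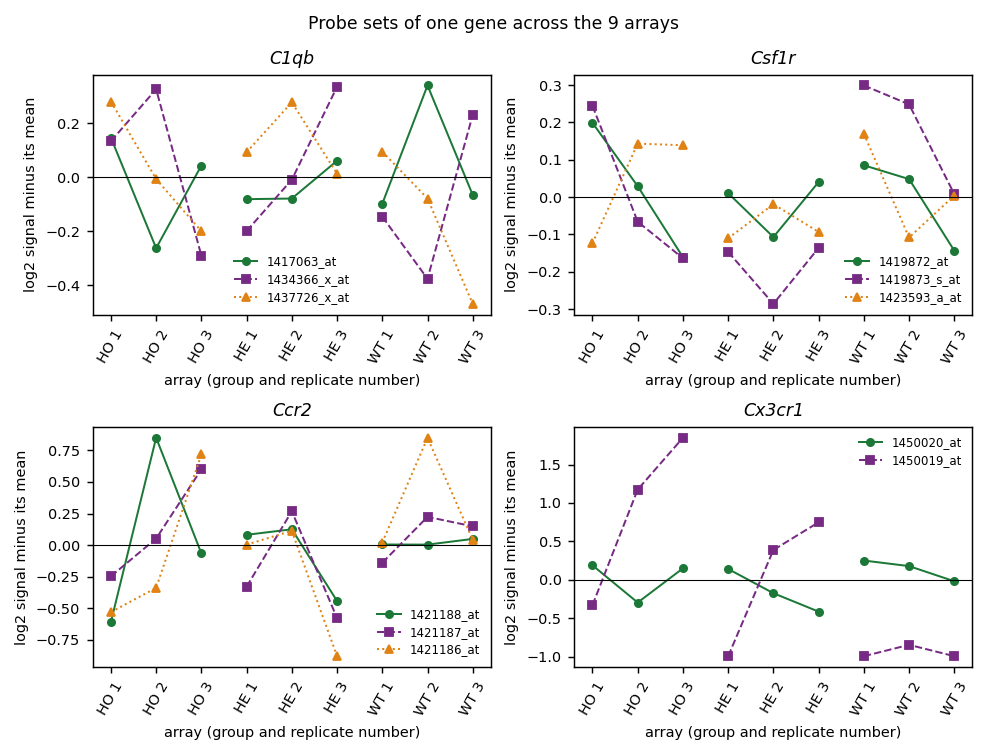
Log2 signal minus its mean over the 9 arrays (vertical axis) for the probe sets of C1qb, Csf1r, Ccr2 and Cx3cr1, by array (horizontal axis: group and replicate number). Lines join the arrays of 1 group. Probe sets of the same gene run apart, as for C1qb at WT replicate 2, where 1417063_at is highest and 1434366_x_at lowest.

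Apoe, the lipid carrier that macrophages secrete and that removes cholesterol from cells, had 11480, 10423 and 8822 in HO lungs, 8701, 9410 and 9599 in HE lungs and 9302, 11076 and 8072 in WT lungs. The groups overlapped. The log2 difference was 0.11 ± 0.15 in HO (interval -0.22 to 0.45) and -0.03 ± 0.15 in HE (interval -0.36 to 0.31).

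Plac8, a small cysteine-rich protein found in monocytes and other leukocytes, had 6130, 4261 and 6528 in HO lungs, 6320, 6236 and 6590 in HE lungs and 9464, 6777 and 6342 in WT lungs. HO replicate 2 was the lowest array and WT replicate 1 stood far above all others, while WT replicate 3 lay below HO replicate 3. The mean was 5639 ± 1211 in HO, 6382 ± 185 in HE and 7528 ± 1691 in WT (SD, n = 3 each). In HO the signal was 0.748 times that of WT, a log2 difference of -0.42 ± 0.19 with an interval from -0.84 to 0.002 (unadjusted p = 0.0509, adjusted p = 0.992 in limma; with replicate number as a block, unadjusted p = 0.0378 and adjusted p = 0.826), and in HE the difference was -0.22 ± 0.19. The HO difference was -0.23 without HO replicate 2 and -0.24 without WT replicate 1. Within replicate numbers it was -0.63, -0.67 and 0.04 for numbers 1, 2 and 3.

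HO and HE were also compared with each other, which asks whether the second allele added anything. No member probe set passed (0 of 14, background 0%; lowest adjusted p = 1 in limma), and 0 of 14 had an unadjusted p under 0.05 (background 2.56%). In HO 11 member probe sets were above and 3 below HE, with a median log2 difference of 0.13, against 0.005 over all probe sets. Of all probe sets, 51.4% were above HE, and several of the member probe sets share a gene. The differences ran from -0.20 ± 0.19 for Plac8 to 0.35 ± 0.25 for Ccr2 1421187_at, and these were -0.0124 and 0.389 without HO replicate 2. With both transgenic groups set against WT, 0 of 14 passed (background 0%), 1 of 14 had an unadjusted p under 0.05 (background 4.19%), and the differences ran from -0.32 ± 0.17 for Plac8 to 0.23 ± 0.15 for C1qb 1437726_x_at.

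The arrays also carry a replicate number in their titles, and the source names fall into the same 3 sets. Each set holds 1 HO, 1 HE and 1 WT array, so genotype is balanced over them; what the sets stand for is not stated in the labels. C1qa and C1qc followed these numbers more than genotype. C1qa had 2936, 2895 and 2418 in replicate number 3 (HO, HE and WT), 3250, 2958 and 3628 in number 2 and 4640, 3620 and 3813 in number 1. Every array of number 3 lay below every array of number 1, at 0.685 times its signal, a log2 difference of -0.55 ± 0.14. C1qc had 1429, 1299 and 1219 in number 3, 1590, 1815 and 1503 in number 2 and 2118, 1572 and 2138 in number 1, again without overlap between numbers 3 and 1 (0.682 times, -0.55 ± 0.16). Replicate number took 73.3% of the sum of squares of C1qa over the 9 arrays and 70.4% of that of C1qc, and genotype 8.0% and 4.0%. Over all probe sets the medians were 29.2% for replicate number and 18.2% for genotype.

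These differences did not pass over all probe sets (limma F test over the 3 numbers, adjusted p = 0.339 for C1qa and 0.351 for C1qc; unadjusted p = 0.0127 and 0.0192). At an unadjusted p under 0.05 there were 2 of 14 member probe sets, near the background of 12%. At an adjusted p under 0.05 there were 0 of 14 (background 0.0147%). The arrays of number 3 lay wholly below those of number 1 at 3 of 14 member probe sets (C1qa, C1qc and C1qb 1437726_x_at), against a background of 9.83%. C1qb 1417063_at did not share the pattern: its difference between numbers 3 and 1 was 0.02 ± 0.17, and replicate number took 0.4% of its sum of squares. Csf1r 1419872_at was at -0.19 ± 0.13, Apoe at -0.15 ± 0.14, Cx3cr1 at -0.29 ± 0.16, Plac8 at -0.14 ± 0.17, Cd14 at 0.02 ± 0.19 and Ccr2 1421188_at at 0.02 ± 0.27. Replicate number took more of the sum of squares than genotype at 9 of 14 member probe sets (64.3%), against 60.9% of all probe sets.

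The ratio of 3′ to 5′ Actb control probe sets, a sign of RNA integrity, was 1.221, 1.264 and 1.178 in number 3 (HO, HE and WT) and 1.354, 1.215 and 1.301 in number 1, and that of Gapdh 0.793, 0.828 and 0.775 against 0.886, 0.804 and 0.845. Both ratios overlapped between the numbers, being lower in number 3 in HO and WT and higher in HE. Among 11 lung epithelial and endothelial genes, 9 were lower and 2 higher in number 3 than in number 1, with a median log2 difference of -0.13, and their summed intensity ran from 252155 to 303622 in number 3 and from 298654 to 318414 in number 1. Of 19 interstitial and resident macrophage genes tested, 14 were lower and 5 higher in number 3, with a median of -0.04. The summed intensity of the 22 with a probe set ran from 132496 to 149768 in number 3 and from 153043 to 160444 in number 1. Such sums follow the brightest probe sets: here Cbr2, with 45815 to 61262 over the 9 arrays, and Selenop, with 28805 to 38871, made up much of it. Which lung cells gave the Cbr2 and Selenop signals was not tested, so this sum is not a measure of interstitial macrophages. Of 9 classical monocyte genes, 6 were lower and 3 higher (median -0.22), and the sum of the 11 with a probe set ran from 112400 to 125267 in number 3 and from 130753 to 140350 in number 1, led by Lyz1 (33620 to 54486) and Ifitm3 (21289 to 33551). Lyz1 was read by an _x probe set, which may also bind other sequences. Which cells gave the Lyz1 and Ifitm3 signals was not tested. Of 10 alveolar macrophage genes, 5 were lower and 5 higher (median 0.03). More genes were higher than lower in number 3 among 23 general macrophage and monocyte genes (13 higher and 10 lower, median 0.07). The same held for 9 non-classical monocyte genes (6 higher and 3 lower, median 0.10). Over all probe sets tested, 50.1% were lower in number 3, with a median of -0.001. The sum of 14 alveolar macrophage markers overlapped (55667 to 58958 in number 3, 55661 to 60675 in number 1), as did those of 13 neutrophil markers (16809 to 72143 in number 3, 17849 to 33922 in number 1) and 15 T and NK cell markers (13338 to 16694 in number 3, 12472 to 14126 in number 1). None of these markers was at or under the floor on all arrays. The part of any of these in the C1qa and C1qc values was not tested.

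**Figure D4:**
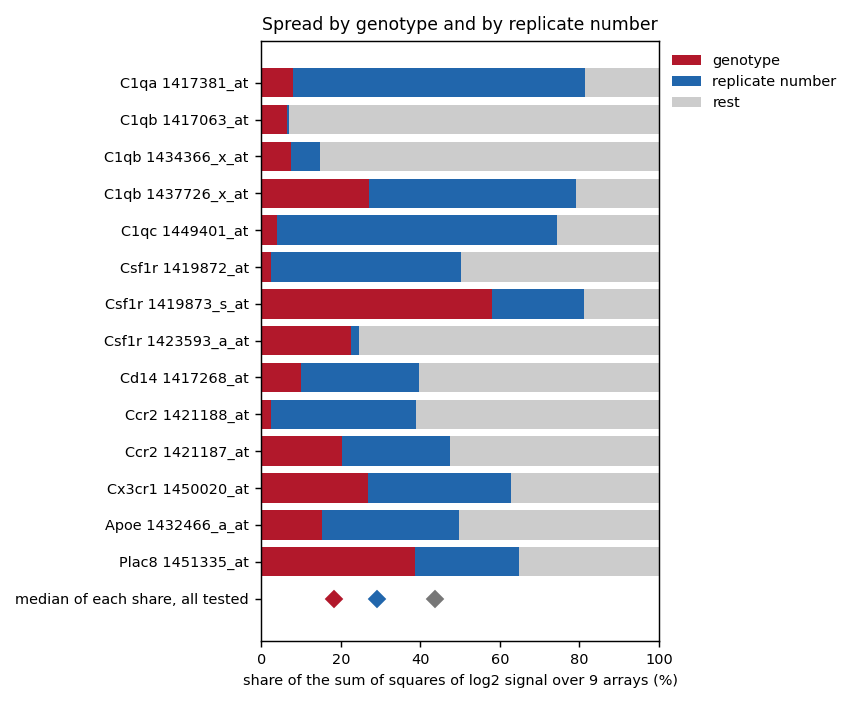
Share (%) of the sum of squares of log2 signal over the 9 arrays that goes with genotype (red), replicate number (blue) and neither (grey) at the 14 member probe sets tested. Diamonds in the lowest line give the median of each share over all 13576 probe sets. The longest blue bars are those of C1qa (73.3%) and C1qc (70.4%), and the longest red bar that of Csf1r 1419873_s_at (57.9%).

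How the genes varied together was described over the 9 arrays with the main probe set of each, giving 36 pairs. No pair passed after adjustment over the 36 (0 by Pearson's r and 0 by Spearman's rho, with 4 at an unadjusted exact p under 0.05 for r). The pairs share their arrays and the spread by replicate number. The pair of lowest p was C1qa with Csf1r (r = 0.86, exact permutation p = 0.00393, adjusted p = 0.141; rho = 0.78, exact p = 0.0172, adjusted p = 0.206), with r = 0.67 without HO replicate 1 and WT replicate 3 and 0.75 once the means of genotype and replicate number were taken out. C1qa with C1qc followed (r = 0.80, exact p = 0.0102, adjusted p = 0.184; rho = 0.82, exact p = 0.0108, adjusted p = 0.206), with r = 0.54 without the same 2 arrays and 0.11 with those means taken out. Csf1r with Apoe had r = 0.75 (exact p = 0.0193, adjusted p = 0.232; rho = 0.72, exact p = 0.0369, adjusted p = 0.266), 0.58 without HO replicate 3 and WT replicate 3, and 0.92 with the means taken out. The monocyte receptor Ccr2 had, with C1qb, r = -0.64 (exact p = 0.0636, adjusted p = 0.458; rho = -0.78, exact p = 0.0172, adjusted p = 0.206), and -0.94 without HO replicate 1 and WT replicate 2. Its r with other members depended on the arrays used: without the 2 arrays farthest from the median, r was 0.19 with C1qa (-0.28 over all 9), 0.46 with C1qc (-0.12 over all 9), 0.62 with Cx3cr1 (-0.26 over all 9) and -0.007 with Plac8 (-0.51 over all 9). It became more negative with Csf1r (-0.50, from -0.32), Cd14 (-0.37, from -0.18) and Apoe (-0.20, from -0.14). The median was that of Ccr2 for Cx3cr1, Apoe and Plac8, and that of the other gene for the remaining pairs.

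**Figure D5:**
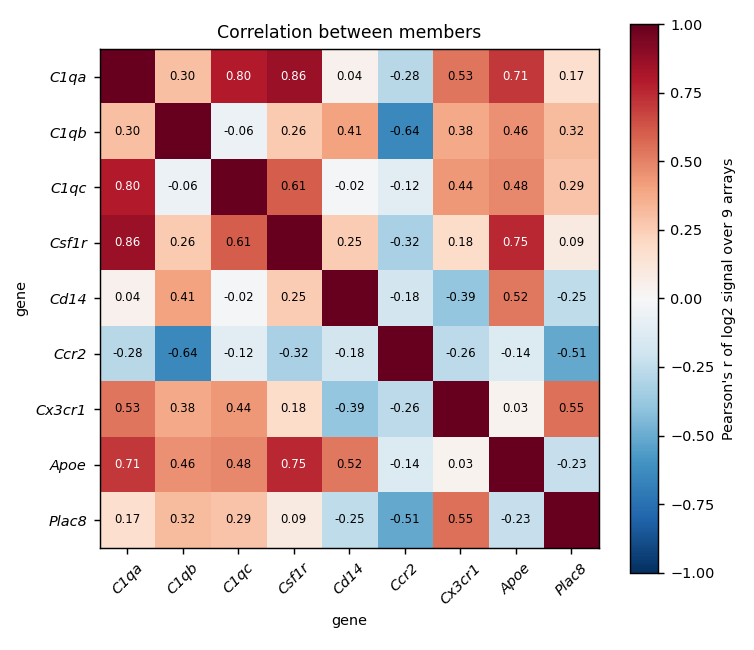
Pearson's r (colour and printed value) of log2 signal over the 9 arrays between the main probe sets of the 9 genes, which are named on both axes. The highest value is the 0.86 of C1qa with Csf1r, and over all 9 arrays Ccr2 is below 0 with each of the other genes. Without the 2 arrays farthest from the median, this turns for C1qa, C1qc and Cx3cr1 and grows more negative for C1qb, Csf1r, Cd14 and Apoe.

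Genes most like the members were sought among 8175 others by r over the 9 arrays, as a description. The mean of the 3 C1q chains was followed most closely by Serinc3 (r = 0.97), Golm1 (0.94), Irx1 (0.93), Fanca (0.92) and Acot7 (0.91). The closest gene was Tpt1 for Csf1r (r = 0.98), Maff for Cd14 (0.93), Phf8 for Ccr2 (0.97), Cyp2s1 for Cx3cr1 (0.95), Rgl3 for Apoe (0.96) and Mlst8 for Plac8 (0.96). With so many genes and 9 arrays, values of this size are the extremes of a large search.

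The wider set of monocyte and macrophage genes came from lists of known markers. In each list below, 0 genes passed an adjusted p of 0.05 in limma in HO or HE against WT, and the monocyte, macrophage, complement and lipid genes at an unadjusted p under 0.05 are named. Of 23 general macrophage and monocyte genes tested, 8 were above and 15 below WT in both HO and HE, with median log2 differences of -0.06 in each. One of them had an unadjusted p under 0.05: the Fc receptor Fcgr3 in HE (-0.43 ± 0.19, unadjusted p = 0.0471, adjusted p = 1 in limma). Of 19 interstitial and resident macrophage genes, 9 were above and 10 below in HO (median -0.02) and 6 above and 13 below in HE (median -0.03). Their lowest p in HE was that of Fcrls, an Fc receptor-like gene of resident macrophages, which had 533, 411 and 488 in HE lungs and 592, 678 and 674 in WT lungs (-0.45 ± 0.16, unadjusted p = 0.0162, adjusted p = 1 in limma). All 3 HE arrays of Fcrls lay below the WT arrays. HE and WT did not overlap, in either direction, at 7.7% of all probe sets tested. Over the replicate numbers, Lyve1, a marker of macrophages along vessels that lymphatic endothelium also makes, had the lowest p of the list (log2 difference 0.80 between numbers 2 and 1 and 0.50 between 3 and 1; F test unadjusted p = 0.000838, adjusted p = 0.266 in limma). Of 9 classical monocyte genes, 5 were above and 4 below in HO (median 0.05) and 4 above and 5 below in HE (median -0.05). Within them, Ifitm6 had 382, 376 and 462 in HO lungs and 701, 554 and 568 in WT lungs (-0.58 ± 0.24, unadjusted p = 0.0327, adjusted p = 0.992 in limma). All its HO arrays lay under the filter intensity of 476.5, so it was tested only because other arrays raised its mean. The matrix gene Fn1 was at 0.37 ± 0.15 in HE. Of 9 non-classical monocyte genes, 3 were above and 6 below in both groups (median -0.04 in each), with 0 at an unadjusted p under 0.05.

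Of 8 ligands and partners of the receptors tested, 3 were above and 5 below WT in HO and 2 above and 6 below in HE, with medians of -0.02 and -0.03 and 0 at an unadjusted p under 0.05. The Csf1r ligands were at -0.06 ± 0.14 for Csf1 and 0.20 ± 0.17 for Il34 in HO, and at -0.10 ± 0.14 and -0.005 ± 0.17 in HE, in the same order. Cx3cl1, the ligand of Cx3cr1, was at -0.02 ± 0.14 in HO and -0.045 ± 0.14 in HE. Tlr4, which signals for Cd14, was at 0.045 ± 0.17 in HO and 0.07 ± 0.17 in HE. Across replicate numbers, Tlr2, another receptor that works with Cd14, had 2598, 2566 and 2336 in number 2 (HO, HE and WT) and 1400, 1097 and 1371 in number 1, a log2 difference of 0.96 (F test unadjusted p = 0.000577, adjusted p = 0.254 in limma).

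Complement genes other than C1q numbered 17. In HO 6 were above and 11 below WT (median -0.02), and in HE 7 above and 10 below (median -0.10). The lowest p in HO was that of Cd55, which protects cells from complement: it had 1322, 1036 and 1205 in HO lungs and 814, 994 and 897 in WT lungs (0.40 ± 0.14, unadjusted p = 0.0183, adjusted p = 0.992 in limma). Its HO and WT arrays did not overlap, as at 8.88% of all probe sets tested. Between replicate numbers 3 and 1, 13 of 17 complement genes were lower and 4 higher in number 3, with a median of -0.10 against -0.001 over all probe sets. Within them C2, the classical pathway protease that acts after C1, had 962, 823 and 686 in number 3 (HO, HE and WT) and 1368, 1719 and 1982 in number 1, a log2 difference of -1.03 ± 0.20. C1ra, the protease that C1q carries, was at -0.42 ± 0.13, and Cfb, the alternative pathway counterpart of C2, at -0.51 ± 0.13. Number 3 lay wholly below number 1 at 5 of 17 complement genes (C2, C1ra, Cfb, Cd59a and Fcna), where 9.83% of all probe sets did the same. The first 3 of these did not pass the F test (adjusted p = 0.286 for C2, 0.342 for C1ra and 0.335 for Cfb in limma). C1s1, the partner of C1r, was at -0.09 ± 0.14.

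Lipid genes around Apoe were 5 above and 4 below WT in HO and in HE, of 9 tested, with medians of 0.05 and 0.08. Apoc1, the neighbour of Apoe in a shared gene cluster, had 1326, 1217 and 1162 in HE lungs and 2079, 1597 and 1603 in WT lungs (-0.50 ± 0.19, unadjusted p = 0.0210, adjusted p = 1 in limma). Its HE and WT arrays did not overlap, as at 7.7% of all probe sets tested. In HO it was at 0.05 ± 0.19. The cholesterol exporter Abca1 was at 0.07 ± 0.15 in HO and 0.17 ± 0.15 in HE.

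Markers of other cell types showed no gene past the adjusted threshold either. Of 10 alveolar macrophage genes tested, 5 were above and 5 below WT in HO (median log2 difference -0.03), and 1 above and 9 below in HE (median -0.12). Of 9 neutrophil genes, 0 were above and 9 below in HO (median -0.16), and 6 above and 3 below in HE (median 0.22). The medians were 0.05 in HO and -0.07 in HE for 11 T and NK cell genes, 0.004 and -0.32 for 7 B cell genes, and 0.14 and 0.075 for 8 dendritic cell genes, in the same order of groups. The part of these cells in the members' values was not tested.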

How the data were processed

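Lung RNA of 9 samples was hybridised to Affymetrix mouse arrays, per the labels. The deposited table holds 1 intensity per probe set and array on a linear scale; from the values, every array had been scaled to the same mean (1500.4) after trimming 2% at each end. The labels do not name the summarising software. Values under the 5th percentile (25.55) were set to it before taking log2; 64 control probe sets and those under the 40th percentile of mean log2 (8.90) were left out, leaving 13576. Group means were fitted to all 9 arrays with limma 3.58.1 (lmFit, eBayes) in R 4.3.3, and replicate numbers in a fit with genotype. Benjamini-Hochberg adjustment ran over all probe sets tested; the fits were tested on simulated data. A gene's main value is its probe set of highest mean. Symbols came from the platform annotation: 20380 probe sets had 1, 691 several and 1555 none. Of 228 listed marker genes, 197 matched, each used at its probe set of highest mean, and up to 3 of lowest p per list were named, with Adgre1, Abca1, C1s1 and the ligands and partners of the members chosen after their values were seen. Between HO and WT arrays of the same number, deviations from the group mean had correlations of 0.19, 0.14 and 0.28, so the numbers may pair HO with WT. HE and WT gave 0.30, 0.05 and 0.04, and HO and HE gave 0.16, 0.15 and 0.03. The main fit had no block for replicate number, because the labels do not say what it stands for. A fit with the block was run as an alternative. Precision is limited by having 3 arrays per group. The members and lists were chosen with earlier results of these data known.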

Additional observations from a re-analysis of the deposited data

Results flagged for a closer look

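The dim Cx3cr1 probe set 1450019_at, which the filter on low signal left out of the tests, separated HO from WT without overlap. Of the brighter probe sets that were tested, 8.88% did the same, a share that does not cover probe sets as dim as this one. In the run without the filter it did not pass in HO against WT (unadjusted p = 0.0197, adjusted p = 0.921 in limma). Its intensities were 40, 115 and 183 in HO lungs, 24, 67 and 86 in HE lungs and 21, 28 and 24 in WT lungs (replicate numbers 1, 2 and 3). Of the WT arrays, all but replicate 2 lay under the floor of 25.55, so no fold against WT is given. The values also differed by replicate number: number 3 had 183, 86 and 24 (HO, HE and WT), and number 1 had 40, 24 and 21. The brighter Cx3cr1 probe set had a log2 difference of -0.12 ± 0.18 in HO against WT.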

How the results depend on the processing

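No member probe set passed an adjusted p of 0.05 under any alternative run: 47 member differences were set against 912 alternative values, of which 847 kept their direction and 65 changed sign. Over all probe sets, the counts past the threshold were 0 for the genotype comparisons and became 2 without the filter for HE against WT and for HO against HE. Leaving out 1 array gave 0 to 1 for HO against WT, HE against WT and both transgenic groups against WT, the 1 in each case without WT replicate 1. For replicate numbers the count was 2; it was 1 with quantile normalization, median centring, the filter at the 60th percentile or no genotype term, 5 with trended and robust eBayes, 0 without the filter or with HO replicate 2 counted as HE, and 0 to 1 with 1 array left out. The replicate block, which in this balanced design cannot move a difference, brought no member past the adjusted threshold and left the counts of the genotype comparisons at 0. It changed the SE of HO minus WT from 0.213 to 0.142 for C1qa and from 0.222 to 0.155 for C1qc. For C1qb 1417063_at the SE went from 0.158 to 0.168. The unadjusted p of Plac8 in HO (difference -0.418) was 0.0509 without the block and 0.0378 with it (adjusted p = 0.826 in limma), and also fell under 0.05 with quantile normalization (0.0425), the filter at the 60th percentile (0.0433), trended and robust eBayes (0.0343) and array weights (0.0487). Counts at an unadjusted p under 0.05 moved by over 1.5 times with the filter, which also sets how many probe sets are tested. That number was 13576 in the main run and 22626 without the filter, and it was smaller at the 60th percentile. For HO against WT the count went from 610 to 1225 without the filter and 378 at the 60th percentile. It went from 422 to 992 and 260 for HE against WT, and from 348 to 783 and 216 for HO against HE. In these comparisons the shares of the probe sets tested moved the same way as the counts, but by less. For both against WT the count went from 569 to 1191 and 352. For HO against WT the count was 369 with HO replicate 2 counted as HE, 397 without HO replicate 2 and 1001 without HO replicate 3, and for HO against HE 661 without HO replicate 3 and 527 without HE replicate 1.

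With HO replicate 2 counted as HE, HO minus WT became 0.036 for C1qb 1417063_at, -0.014 for Csf1r 1423593_a_at, -0.36 for Ccr2 1421188_at and 0.032 for Cx3cr1, HE minus WT 0.13 for Ccr2 1421188_at and 0.017 for Apoe, and HO minus HE 0.13 for Plac8. With quantile normalization, HO minus WT became -0.010 for Csf1r 1419872_at and number 3 minus 1 -7.53e-05 for C1qb 1417063_at. With median centring, HE minus WT became 0.00107 for C1qa, 0.011 for C1qc, 0.022 for Csf1r 1419872_at and 0.011 for Apoe, and array weights gave -0.00411 for Ccr2 1421188_at between numbers 3 and 1. Leaving out 1 array at a time, HO minus WT ran from -0.072 to 0.27 for C1qa, -0.17 to 0.058 for C1qb 1417063_at, -0.087 to 0.32 for C1qc, -0.063 to 0.12 for Csf1r 1419872_at, -0.034 to 0.12 for Csf1r 1423593_a_at, -0.25 to 0.070 for Cd14, -0.36 to 0.37 for Ccr2 1421188_at, -0.18 to 0.25 for Ccr2 1421187_at and -0.21 to 0.032 for Cx3cr1. HE minus WT ran from -0.24 to 0.085 for C1qa, -0.17 to 0.049 for C1qb 1417063_at, -0.0071 to 0.30 for C1qb 1434366_x_at, -0.21 to 0.19 for C1qc, -0.085 to 0.029 for Csf1r 1419872_at, -0.058 to 0.24 for Cd14, -0.20 to 0.084 for Ccr2 1421188_at and -0.14 to 0.091 for Apoe. Number 3 minus 1 ran from -0.085 to 0.16 for C1qb 1417063_at, -0.015 to 0.49 for C1qb 1434366_x_at, -0.078 to 0.17 for Csf1r 1423593_a_at, -0.13 to 0.30 for Cd14, -0.35 to 0.27 for Ccr2 1421188_at, -0.010 to 0.61 for Ccr2 1421187_at and -0.30 to 0.041 for Plac8. The cause of these changes of sign was not tested.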
